A study of Rattus norvegicus with 28 samples.

Results

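Different ways of raising cAMP in the same cells were set side by side: wild-type INS-1 cells exposed for 8 h to Exendin-4 (Ex-4), and the same cells exposed for 8 h to forskolin (FSK). INS-1 is a rat insulinoma line that makes insulin. The comparison took 4 of the 28 bulk RNA-seq libraries, 2 of Ex-4 and 2 of FSK, identified by their labels. The contrast itself was chosen with earlier results of these data known. Ex-4 is a stable agonist of the GLP-1 receptor, a G protein-coupled receptor of the beta cell surface that acts through the stimulatory G protein, while FSK is a plant diterpene that activates most adenylyl cyclases directly and needs no receptor. Both raise cAMP, which activates protein kinase A (PKA). PKA phosphorylates the transcription factor CREB, which binds the cAMP response element (CRE) of its target genes, and several of those targets (phosphodiesterases, salt-inducible kinases, regulators of G protein signalling) in turn damp the pathway. In beta cells cAMP amplifies glucose-stimulated insulin secretion and maintains the expression of beta cell genes.

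The study asked how the Mediator subunit Med14 takes part in the response to Ex-4, and profiled INS-1 cells that were wild type (WT) or carried a knock-in of Med14 S983A, in which a PKA site of Med14 is lost. Both genotypes were sampled without treatment (CON) and with Ex-4 (10 nM) or FSK (10 µM) for 1, 8 or 16 h, giving 14 groups of 2 libraries. Cells were in serum-free medium before treatment, and the labels do not give the hours that CON cells spent in it. A single dose of each agent was used and the doses are not known to raise cAMP alike, so the contrast is between these doses and not between the agents in general. INS-1 is a proliferating tumour line, and nothing in the labels says whether the replicates came from separate cultures, so p-values measure the spread between these libraries, which may be technical. ERCC spike-in RNA was dosed against RNA mass, so scaling to it gives RNA per mass and not per cell. In bulk RNA, fewer cells that express a gene and less of its RNA in each cell cannot be told apart.

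The 4 libraries held 46350928 to 50385734 fragments on genes. Replicates correlated with Pearson r of 0.999 for Ex-4 and 0.998 for FSK over log2 values across genes, which are not independent replicates. Beta cell identity was checked with 10 markers, of which 7 had a mean of at least 1 TPM (transcript abundance per fixed library total) over the 4 libraries. Ucn3 was near 0, and Ins1, Ins2, Iapp, Pdx1, Nkx6-1, Slc2a2 and Slc30a8 were present. Of 12 fibroblast, endothelial and blood cell markers, none had a mean of 1 TPM, and their summed level was 0.600 to 0.646 TPM with Ex-4 and 0.847 to 0.949 TPM with FSK. Of the 10 markers of other islet cells, Gcg alone was above 1 TPM: it was at 758 and 918 TPM with Ex-4 and at 1225 and 1345 TPM with FSK, whereas the alpha cell factor Irx2 was listed at 0 in all 4 libraries. Of 12 acinar and duct markers, 2 had a mean of at least 1 TPM, and the summed level was 45.2 and 46.5 TPM with Ex-4, 36.2 and 39.7 TPM with FSK and 16.5 and 14.7 TPM in CON. Their part in the results was not tested, and Prss1, Pnlip and Spp1 were listed at 0 in all 4 libraries.

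Differences are given as Ex-4 minus FSK on the log2(TPM + 1) scale, so a negative value means more RNA with FSK. Of 10275 genes tested, 2396 were higher and 490 lower with Ex-4 by more than 1.5-fold at an adjusted p under 0.05 in limma (28.1% of genes called, 23.3% higher and 4.77% lower). The libraries of both groups were completely separated for all 2886 called genes, but also for 87.0% of all genes tested. On this scale 24 of the 490 FSK-higher calls (4.90%) exceeded 4-fold, against 30 of the 2396 Ex-4-higher calls (1.25%). The number was thus greater for Ex-4 and the share for FSK, and the totals behind these shares depend on the scale.

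The balance of both directions depended on the scale. The median difference over all genes was 0.23 on the TPM scale, with 71.6% of genes above 0. TPM values of one library sum to a fixed total, and a few abundant transcripts took a larger part of it with FSK: Ins1 alone made up 4.74% and 4.51% of all TPM with Ex-4 and 6.56% and 6.78% with FSK. Their part in the median difference was not tested. After each library was centred on its median gene, the calls were 1195 higher (11.6%) and 1058 lower (10.3%) with Ex-4, 21.9% in all, with a median of −0.04. With ERCC scaling they were 3345 higher (32.6%) and 352 lower (3.43%), 36.0% in all, with a median of 0.37, and ERCC made up 0.859% and 0.803% of fragments with Ex-4 and 0.940% and 0.924% with FSK. The same call held under all 3 scalings for 1547 genes (15.1%), of which 1195 were higher (11.6%) and 352 lower (3.43%). These are all the higher calls of centring and all the lower calls of ERCC scaling. The strictest scaling in each direction thus set the count, and the scalings are not independent checks. The plot of the difference in all genes shows the scalings as shifts of one distribution.

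**Figure D1:**
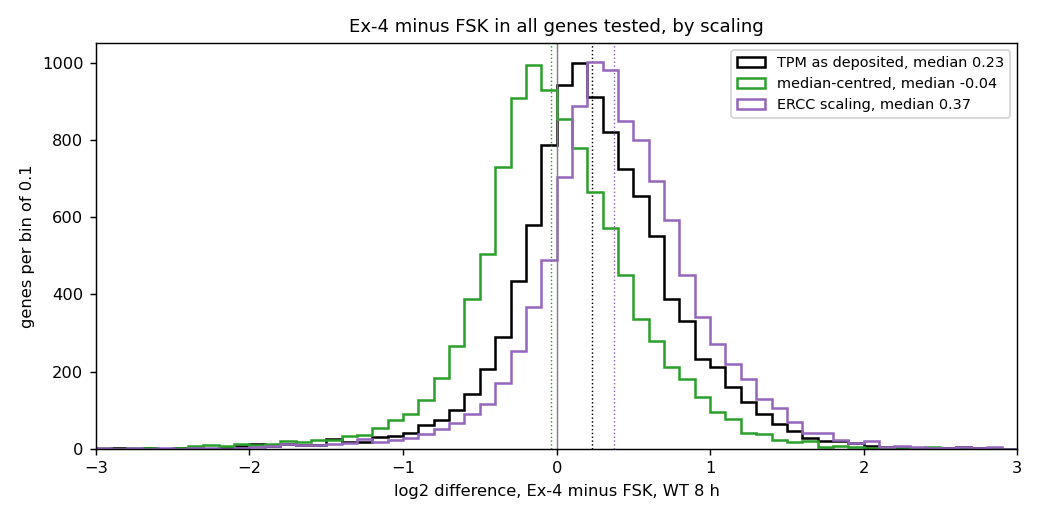
Histograms of the log2 difference, Ex-4 minus FSK, in WT cells at 8 h (x axis) for 10275 genes (y axis, genes per bin of 0.1) with TPM as deposited, after centring on the median gene and with ERCC scaling; dotted lines mark the medians. The median lies at 0.23, −0.04 and 0.37, and the shape of the distribution is alike in each. Genes beyond 3 on either side are outside the axis.

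Among genes of at least 10 TPM that held the call under all 3 scalings, the 12 most in favour of FSK included Fosl1, Fst, Fosb, Ccnd1, Gprc5a, Tac1, Tgfb2, Nmu, Trib3, Sv2c and Chac1. Fosl1, a Fos family subunit of the AP-1 transcription factor (rn6 chr1:220826560-220835066, plus strand), was at 0.502 and 0.617 TPM with Ex-4 and at 28.7 and 28.8 TPM with FSK. In CON it was listed at 0 and at 0.104 TPM, so the Ex-4 libraries were close to the untreated level and the FSK libraries far above it (log2 difference −4.25 ± 0.11 SE, adjusted p = 1.30e-20). Fst encodes follistatin, a secreted antagonist of activin. Its level was 5.63 and 5.75 TPM with Ex-4 and 108 and 122 TPM with FSK, a 20.2-fold ratio of the means, against 0.289 and 0.458 TPM in CON. Both agents thus stood well apart from CON for this gene, and from each other. Ccnd1, the G1 cyclin D1, was at 4.71 and 4.69 TPM with Ex-4, 57.1 and 57.6 TPM with FSK and 0.50 and 0.360 TPM in CON (−3.36 ± 0.08). Gprc5a, an orphan receptor, was at 6.37 and 6.74 TPM against 70.9 and 78.5 TPM. The growth factor gene Tgfb2 was at 3.46 and 3.51 TPM with Ex-4 and at 30.0 and 34.0 TPM with FSK. For all 11 genes given here the order of the means was CON, then Ex-4, then FSK.

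The 12 genes most in favour of Ex-4 by the same rule were Txnip, Arrdc4, Glb1l2, Oxr1, Psd, Rph3al, Glul, Vil1, Glrx, Dcx, Slc44a3 and Cabp7. Txnip, which encodes the thioredoxin-interacting protein induced by glucose in beta cells (rn6 chr2:198683168-198686968, plus strand), was at 47.3 and 45.0 TPM with Ex-4 and at 2.32 and 1.99 TPM with FSK (3.90 ± 0.08, adjusted p = 7.57e-22). CON was higher than both, at 329 and 312 TPM. Its arrestin-fold relative Arrdc4 followed the same order, with 197 and 180 TPM in CON, 87.9 and 81.2 TPM with Ex-4 and 13.4 and 10.9 TPM with FSK. Oxr1, an oxidation resistance gene, was at 81.9 and 85.8 TPM with Ex-4 and 13.2 and 11.6 TPM with FSK, a 6.77-fold ratio. Rph3al, an effector of Rab GTPases in exocytosis also called Noc2, was at 136 and 124 TPM against 23.1 and 22.9 TPM. Glutamine synthetase (Glul) was at 149 and 153 TPM with Ex-4 and 30.0 and 26.5 TPM with FSK (2.38 ± 0.05). These genes differed in the opposite sense from the Fosl1 group, yet in all 12 the Ex-4 mean again lay between CON and FSK, as the plot of levels by library shows.

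**Figure D2:**
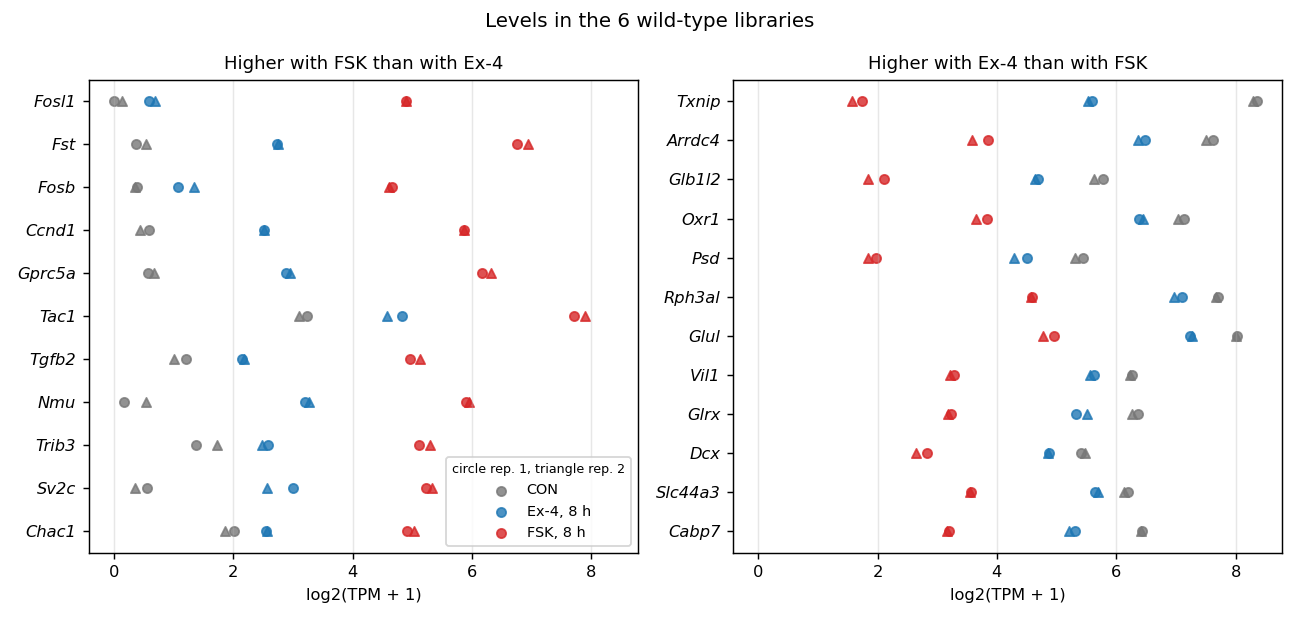
Level of each of 23 leading genes, as log2(TPM + 1) on the x axis, in the 6 WT libraries: CON in grey, 8 h of Ex-4 in blue and 8 h of FSK in red, with a circle for replicate 1 and a triangle for replicate 2. The Ex-4 points lie between CON and FSK in every row, and no row has overlapping Ex-4 and FSK points.

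Immediate early genes are transcription factor genes that cAMP and growth signals switch on within minutes. Of 20 tested from a list of 22, 15 were lower and 1 higher with Ex-4 than with FSK (list median −1.51, all genes 0.23). Of all genes, 4.77% were lower and 23.3% higher. The AP-1 subunits led the list. Fosb was at 1.10 and 1.55 TPM with Ex-4 and 24.2 and 23.5 TPM with FSK (−3.42 ± 0.08), and Fosl2 at 13.8 and 12.8 TPM against 71.1 and 75.4 TPM (−2.37 ± 0.08). Fos itself was at 6.80 and 7.05 TPM with Ex-4, 28.6 and 26.9 TPM with FSK and 2.16 and 1.91 TPM in CON. The orphan nuclear receptor Nr4a1 was at 52.1 and 56.2 TPM with Ex-4, 179 and 176 TPM with FSK and 17.3 and 18.4 TPM in CON (−1.70 ± 0.08). The exception was Myc, a growth-promoting factor that was at 35.6 and 37.4 TPM with Ex-4, 12.9 and 13.7 TPM with FSK and 69.4 and 70.5 TPM in CON (1.39 ± 0.05). Jun, Jund, Ier5 and Klf6 had differences of −0.39 to 0.11 and did not pass on the TPM scale. Against CON, 8 of the 20 were higher with Ex-4 and 16 with FSK, where 371 and 901 of all 10275 genes were. Those comparisons share the CON libraries.

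In a list of genes that brake cAMP signalling, more were called in favour of FSK than of Ex-4. Receptor kinases and arrestins were not in this list and are given with the upstream machinery. Of 24 tested, 11 were lower and 3 higher with Ex-4 (median −0.46), where 4.77% and 23.3% of all genes were. Rgs2, a GTPase-activating protein that switches off G proteins, was at 23.4 and 22.3 TPM with Ex-4 and 97.6 and 101 TPM with FSK (−2.07 ± 0.08). Sik1, the salt-inducible kinase that keeps CREB coactivators out of the nucleus, was at 21.5 and 19.7 TPM against 82.9 and 82.0 TPM (−1.95 ± 0.10). Crem, whose internal promoter yields the repressor ICER, was at 61.6 and 64.0 TPM with Ex-4 and at 171 and 172 TPM with FSK. Ex-4 thus gave an intermediate level of each, since CON held 8.74 and 8.08 TPM of Rgs2, 3.91 and 3.93 TPM of Sik1 and 11.7 and 10.6 TPM of Crem. Among phosphodiesterases, which break down cyclic nucleotides, Pde10a was at 40.9 and 37.0 TPM against 88.6 and 85.8 TPM and Pde4d at 16.5 and 17.2 TPM against 37.7 and 35.5 TPM, with differences of −1.14 ± 0.09 and −1.07 ± 0.08. Pde4c, Dusp6 and Rgs16 went the other way. Rgs16 was at 125 and 128 TPM with Ex-4 and 77.1 and 73.5 TPM with FSK (0.75 ± 0.06), and with median-centring its difference of 0.48 no longer passed the fold minimum. That also applied to Dusp6 (0.59 on the TPM scale, 0.32 centred), whose call was lost as well without Ex-4 replicate 2 (0.54) or FSK replicate 2 (0.57).

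CREB acts through the CRE, so the DNA upstream of the starts was searched for it. RefSeq promoter windows (GRCr8) were found for 8421 of the 10275 genes, and the 250 bases before the start were used. The full CRE, TGACGTCA, lay on either strand in 3.15% of these windows: 17 of 388 genes lower with Ex-4 (4.38%) and 33 of 1932 genes higher with Ex-4 (1.71%). The shorter core TGACG, which every full CRE contains, was in 38.4%, 21.6% and 30.0% of the FSK-higher, Ex-4-higher and all windows. The AP-1 site TGANTCA, which the full CRE does not contain, was in 7.99%, 3.42% and 4.03%. A match is only a description of letters in a window. Scg2, which was higher with Ex-4 (0.91), also held a full CRE. The windows of Crem, Sik1, Rgs2 and Nr4a1, all higher with FSK, held the shorter core but no full CRE. Of 12 FSK-higher genes of at least 10 TPM with a full CRE and the call under all 3 scalings, 4 are shown, since they include the coactivator Ppargc1a and the granule protein Vgf together with Plk2 and Ppp1r15a, which were picked after their values were seen. Each stretch is 60 bases, 5′ to 3′ on the gene's strand, with the CRE in capitals. The positions on GRCr8 are chr2:43702444-43702503, plus strand, for Plk2, chr12:25277077-25277136, minus strand, for Vgf, chr1:105139629-105139688, minus strand, for Ppp1r15a and chr14:63634101-63634160, plus strand, for Ppargc1a.
Plk2: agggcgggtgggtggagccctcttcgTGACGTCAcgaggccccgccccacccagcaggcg
Vgf: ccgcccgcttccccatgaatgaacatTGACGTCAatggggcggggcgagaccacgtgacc
Ppp1r15a: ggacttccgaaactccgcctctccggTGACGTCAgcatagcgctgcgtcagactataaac
Ppargc1a: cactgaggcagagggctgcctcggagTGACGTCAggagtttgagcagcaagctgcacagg
Plk2, a polo-like kinase, was at 16.6 and 17 TPM with Ex-4 and 49.1 and 48.7 TPM with FSK (−1.49 ± 0.07). Ppp1r15a encodes GADD34, the regulatory subunit of an eIF2α phosphatase, and was at 37.8 and 37.7 TPM against 105 and 103 TPM. Ppargc1a (PGC-1α, a coactivator of mitochondrial and gluconeogenic genes) was at 14.5 and 13.6 TPM with Ex-4, 37.3 and 35.1 TPM with FSK and 3.29 and 2.46 TPM in CON (−1.30 ± 0.17). The other 9 tested members of the CREB family and its coactivators did not pass on the TPM scale.

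Cholesterol synthesis and uptake genes were mostly higher with FSK. All 26 listed genes were tested, 16 were lower and 0 higher with Ex-4 (limma median −0.74), where 4.77% and 23.3% of all genes were. At an unadjusted p under 0.05, 2 of the 26 were higher, and edgeR and DESeq2 called 0 higher. After centring 20 were lower and with ERCC scaling 13, where 10.3% and 3.43% of all genes were. Hmgcs1, which makes HMG-CoA for the mevalonate pathway, was at 147 TPM in both Ex-4 libraries and 520 and 517 TPM with FSK, against 80.8 and 78.6 TPM in CON (−1.81 ± 0.05, adjusted p = 2.57e-19). The sterol C4 demethylation enzyme gene Msmo1 was at 239 and 260 TPM with Ex-4 and 822 and 885 TPM with FSK. Insig1, which holds the SREBP transcription factors in the ER when sterols are plentiful, was at 133 TPM in both Ex-4 libraries and 421 and 443 TPM with FSK. The FSK libraries thus held the higher level of each, with no overlap. Srebf2 had a difference of −0.34 and did not pass on the TPM scale (−0.61 after centring). Against CON, the list median was 0.31 with Ex-4 and 1.04 with FSK (all genes −0.10 and −0.34), which share the CON libraries.

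Chaperones and the unfolded protein response, by which the ER adjusts its folding capacity to its load of secretory protein, behaved alike. All 27 tested genes had a difference below 0 on the TPM scale, and 16 passed (median −0.67, −0.94 centred and −0.51 with ERCC scaling). Of all genes, 4.77% were called lower with Ex-4. After centring 25 of the 27 were lower and with ERCC scaling 12, where 10.3% and 3.43% of all genes were. Herpud1, an ER membrane protein of the degradation pathway, was at 108 and 105 TPM with Ex-4 and 281 and 285 TPM with FSK (−1.40 ± 0.05). In CON it was at 100 and 94.9 TPM, close to the Ex-4 libraries. The co-chaperone gene Dnajc3 was at 83.7 and 86.8 TPM against 195 and 209 TPM, and Dnajb9 at 38.7 and 44.1 TPM against 87.7 and 93.2 TPM. Hspa5, the abundant ER chaperone BiP, was at 2258 and 2316 TPM with Ex-4, 4403 and 4794 TPM with FSK and 1051 and 1041 TPM in CON (−1.01 ± 0.05). The glucose-regulated chaperone Hsp90b1 gained 1313 TPM with FSK over Ex-4, and Calr gained 1100 TPM, although its call was lost without FSK replicate 2 (−0.56) and with ERCC scaling (−0.46). Xbp1, Atf6 and Canx had differences of −0.50, −0.41 and −0.24 and did not pass on the TPM scale. After centring these were −0.76, −0.68 and −0.51, of which Xbp1 and Atf6 exceeded the fold minimum.

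Targets of ATF4, the factor translated when eIF2α is phosphorylated, formed a further group with higher levels under FSK. Of 29 tested, 16 were lower and 0 higher with Ex-4 in limma (median −0.70), where 4.77% and 23.3% of all genes were. None was higher at an unadjusted p under 0.05 or with edgeR or DESeq2. After centring 22 of the 29 were lower and with ERCC scaling 12, where 10.3% and 3.43% of all genes were. Trib3, a pseudokinase, was at 5.01 and 4.59 TPM with Ex-4, 33.4 and 38.1 TPM with FSK and 1.6 and 2.30 TPM in CON (−2.66 ± 0.09). The glutathione-degrading enzyme gene Chac1 was at 4.87 and 4.89 TPM against 29.1 and 31.6 TPM. Slc7a11, the cystine transporter, was at 1.96 and 2.04 TPM against 11.1 TPM in both FSK libraries. The stress factor Ddit3 (CHOP) was at 78.8 and 74.5 TPM with Ex-4 and 188 and 193 TPM with FSK. Tested tRNA synthetases were split: Sars1, Tars1, Eprs and Aars passed with differences of −0.70 to −0.88, and Lars1 and Wars1 had −0.04 and −0.03.

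Neuropeptide and gut hormone genes were higher with FSK where they passed. Of 11 neuropeptide and gut hormone genes tested from a list of 30, 7 were lower and 0 higher with Ex-4 in limma (median −0.88), against 1 higher at an unadjusted p under 0.05 and 0 with edgeR or DESeq2. Of all genes, 4.77% were lower and 23.3% higher in limma. Listed genes near 0 in CON were tested only where other groups raised their mean over the 28 libraries. Nmu, at 0.123 and 0.452 TPM in CON, was one, so the counts depend in part on that filter. Tac1, the substance P precursor, was at 27.6 and 22.9 TPM with Ex-4, 208 and 236 TPM with FSK and 8.40 and 7.62 TPM in CON (−3.09 ± 0.09). Nmu (neuromedin U) was at 8.16 and 8.68 TPM against 58.6 and 60.9 TPM (−2.69 ± 0.10). Cck, cholecystokinin, was at 236 and 242 TPM with Ex-4, 535 and 530 TPM with FSK and 24.1 and 25.5 TPM in CON. Cartpt, at 71.1 and 69.3 TPM against 103 and 101 TPM, had a difference of −0.53 ± 0.07 and stayed under the fold minimum on the TPM scale (−0.80 after centring).

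Insulin and the secretory granule varied gene by gene. Of 25 tested granule and processing genes, 4 were lower and 2 higher with Ex-4, where 4.77% and 23.3% of all genes were. The list median was 0.13, which became −0.13 after centring and 0.28 with ERCC scaling. Ins1 was at 47434 and 45098 TPM with Ex-4, 65627 and 67834 TPM with FSK and 34501 and 33716 TPM in CON, a difference of −0.53 ± 0.05 (adjusted p = 3.69e-09) that stayed under 1.5-fold on this scale and passed it after centring (−0.80). The groups did not overlap. Ins2 ran the other way, with 2489 and 2453 TPM with Ex-4, 1980 and 2112 TPM with FSK and 2885 and 2991 TPM in CON (0.27 ± 0.06), and centring moved its difference to 0.00. Rat Ins1 and Ins2 are near-identical copies, so the division of reads between them is uncertain. Iapp, the co-secreted amyloid peptide, was at 7186 and 7881 TPM against 10941 and 11256 TPM (−0.56 ± 0.04). Vgf, whose product is cleaved into secreted peptides, was at 861 and 899 TPM with Ex-4, 2318 and 2552 TPM with FSK and 367 and 360 TPM in CON. Its difference of −1.47 ± 0.07 was the largest of the list. Pam, which amidates peptides, was at 636 and 668 TPM against 1102 and 1196 TPM (−0.82 ± 0.05). The granins Chgb and Scg2 passed in favour of Ex-4 at 0.91 each: Chgb was at 1672 and 1728 TPM with Ex-4, 872 and 937 TPM with FSK and 1360 and 1341 TPM in CON, so it was above CON with one agent and below it with the other.

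Among beta cell transcription factors, several passed in favour of Ex-4. Of 16 tested from a list of 22, 8 were higher and 1 lower, where 23.3% and 4.77% of all genes were (median 0.51, 0.24 after centring and 0.67 with ERCC scaling; after centring 4 were higher and 2 lower). Neurod1, a basic helix-loop-helix activator of the insulin gene, was at 145 and 160 TPM with Ex-4, 64.8 and 58.8 TPM with FSK and 234 and 214 TPM in CON (1.29 ± 0.05). Nkx6-1, which maintains beta cell identity, had means of 42.4 ± 0.59 TPM with Ex-4 and 20.6 ± 0.87 TPM with FSK (SD, n = 2; 1.01 ± 0.07), and Rfx6 at 80.5 and 87.2 TPM against 47.5 and 40.6 TPM. The Ex-4 libraries sat closer to CON for each, since CON held 51.4 and 53.0 TPM of Nkx6-1 and 143 and 144 TPM of Rfx6. Pdx1 was at 230 and 219 TPM with Ex-4 and 203 and 194 TPM with FSK, a difference of 0.18 ± 0.04 whose sign turned after centring (−0.09). Foxa1 was the exception, at 3.2 and 3.74 TPM with Ex-4 and 10.3 and 9.04 TPM with FSK (−1.25 ± 0.13). Mafa was not analysed here.

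The upstream machinery of the pathway comprises receptors, G proteins, cyclases and PKA. Of 36 tested genes 12 passed in favour of Ex-4 and 1 in favour of FSK (median 0.39), a balance in the same direction as that of all genes (23.3% and 4.77%). After centring 8 were higher and 1 lower (median 0.12). Glp1r, the receptor that Ex-4 binds, was at 100 and 98.7 TPM with Ex-4, 74.9 and 77.7 TPM with FSK and 95.4 and 89.8 TPM in CON (0.38 ± 0.04), under the fold minimum. Adcy6, an adenylyl cyclase, was at 61.7 and 51.4 TPM against 26.1 and 23.5 TPM, with 87.6 and 84.1 TPM in CON. The PKA catalytic subunit gene Prkacb was at 59.2 and 56.0 TPM with Ex-4 and 21.6 and 21.8 TPM with FSK (1.37 ± 0.06), and Rapgef4, the cAMP-activated exchange factor Epac2, at 10.1 and 10.8 TPM against 3.54 and 3.22 TPM. FSK libraries were the lowest of the 3 groups for all 3 genes. Arrb1, a beta-arrestin that desensitizes receptors, passed in the other direction, at 4.6 and 4.61 TPM against 8.10 and 8.48 TPM. The G protein-coupled receptor kinase genes Grk3 (0.96), Grk5 (0.77) and Grk6 (1.11) passed in favour of Ex-4. Grk2 (0.47) and Arrb2 (0.57) did not pass on the TPM scale. After centring, Grk5 (0.50) was under the fold minimum. Med14 itself was at 23.1 and 25 TPM with Ex-4 and 25.5 and 25.9 TPM with FSK (−0.09 ± 0.07, adjusted p = 0.203).

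Glucose sensing, channels and receptors for growth factors were split, with 6 of 20 tested genes passing in favour of Ex-4 and 4 in favour of FSK (all genes 23.3% and 4.77%). The balance turned to 4 and 6 after centring and was 9 and 3 with ERCC scaling. Igf1r, the receptor of insulin-like growth factor, was at 47.0 and 43.3 TPM with Ex-4, 152 and 161 TPM with FSK and 19.5 and 17.1 TPM in CON (−1.77 ± 0.08). Its downstream adaptor Irs2 was at 91.5 and 93.0 TPM against 166 and 171 TPM (−0.86 ± 0.05). Both therefore had their highest level with FSK. The calcium channel gene Cacna1a was at 26.4 and 25.3 TPM with Ex-4 and 8.75 and 8.41 TPM with FSK (1.49 ± 0.07), the fatty acid receptor gene Ffar1 at 77.6 and 69.2 TPM against 28.4 and 28.9 TPM, and the potassium channel gene Kcnk16 at 356 and 346 TPM against 164 and 163 TPM. Kdr, Plat and Osbpl6, which the study followed as delayed cAMP targets, were lower with Ex-4 on the TPM scale. Kdr, a VEGF receptor gene, was at 6.19 and 6.64 TPM with Ex-4 and 26.8 and 28.4 TPM with FSK. The plasminogen activator gene Plat was at 16.4 and 18.2 TPM against 63.7 and 71.8 TPM, and Osbpl6 at 9.93 and 9.50 TPM against 16.3 and 15.8 TPM. The call of Osbpl6 was lost with ERCC scaling (−0.52).

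Metabolic lists held calls in both directions, and their balance depended on the scale. Among 23 glycolytic and glucose-responsive genes 7 passed in favour of Ex-4 and 3 in favour of FSK, which became 4 and 6 after centring and 7 and 0 with ERCC scaling (all genes on the TPM scale, 23.3% and 4.77%). Apart from Txnip and Arrdc4, the liver-type pyruvate kinase gene Pklr was at 104 and 102 TPM with Ex-4, 33.8 and 30.2 TPM with FSK and 225 and 220 TPM in CON (1.66 ± 0.04). Aldoa was at 1370 and 1392 TPM against 2214 and 2279 TPM (−0.70 ± 0.05), and this call did not hold with ERCC scaling (−0.54). Among 22 TCA cycle genes the succinyl-CoA ligase subunits parted: Sucla2, of the ATP-forming enzyme, was at 116 and 119 TPM with Ex-4 and 222 and 223 TPM with FSK, whereas Suclg2, of the GTP-forming enzyme, was at 81.6 and 86.0 TPM against 35.3 and 33.7 TPM. Of 26 fatty acid genes 9 passed in favour of Ex-4 and 1 in favour of FSK (median 0.20), and after centring 3 and 2 did (median −0.07). Cpt2, needed for mitochondrial fatty acid import, was at 72.0 and 76.5 TPM against 29.4 and 30.6 TPM (1.28 ± 0.05), and the desaturase gene Fads2 at 348 and 383 TPM against 182 and 185 TPM. Of 70 respiratory chain and ATP synthase genes, 2 passed, Ndufa5 (−0.81) and Atp5mc1 (−0.72), both lower with Ex-4. Atp5mc1 lost the call with ERCC scaling (−0.56). Of 73 cytosolic ribosomal protein genes, 0 passed with limma, edgeR or DESeq2, although 21 had an unadjusted p under 0.05. Their differences ran from −0.22 to 0.28 (median 0.04). Among 37 proteasome genes Psmb10 and Psmb9, which encode immunoproteasome subunits, passed, while Psmb8, which encodes the other one, was at 0.15 and did not. Psmb10 and Psmb9 were at 0.70 each and lost the call after centring, as Psmb9 did without Ex-4 replicate 1 (0.57).

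Cell cycle genes held both directions. Of 47 tested, 9 were higher and 4 lower with Ex-4 (median 0.39), where 23.3% and 4.77% of all genes were. The counts were 4 and 4 after centring (median 0.12) and 20 and 3 with ERCC scaling. The 4 lower genes were 2 D-type cyclins and 2 inhibitors of cyclin-dependent kinases: Ccnd1, Ccnd3, Cdkn1a and Cdkn1b. Cdkn1a (p21) was at 27.6 and 29.1 TPM with Ex-4 and 63.4 and 63.9 TPM with FSK (−1.14 ± 0.06), and Cdkn1b (p27) at 171 and 175 TPM against 343 and 331 TPM (−0.96 ± 0.04). The higher genes included the S-phase regulators Ccne1, at 48.7 and 46.6 TPM against 20.4 and 21.1 TPM, and E2f1, at 25.2 and 22.6 TPM against 12.7 and 11.2 TPM. Mki67, the proliferation marker, had a difference of 0.01. Of 15 clock genes 5 passed in favour of Ex-4 and 4 in favour of FSK, and after centring 5 and 7 did. The shares of all genes were 23.3% and 4.77%, and 11.6% and 10.3% after centring. The repressor gene Cry2 was at 77.2 and 75.0 TPM with Ex-4 and 216 and 218 TPM with FSK (−1.50 ± 0.05), while Nr1d2 was at 17.5 TPM in both Ex-4 libraries and 4.73 and 5.13 TPM with FSK (1.64 ± 0.07), and the output factors Tef and Dbp were higher with Ex-4 by 1.48 and 1.21. Among 17 survival and apoptosis genes 5 passed, all higher with Ex-4, where 23.3% of all genes were. They were the pro-apoptotic BCL-2 family members Bok (0.94 ± 0.06), Bbc3 (0.68 ± 0.10), Bax (0.68 ± 0.05) and Bad (0.61 ± 0.04) and the inhibitor of apoptosis gene Birc3 (0.76 ± 0.11). After centring Bok alone of these kept the call, and the anti-apoptotic Mcl1 was called lower (−0.66). Of 68 mitochondrial ribosomal protein genes 8 were higher, where 23.3% of all genes were. Of these, Mrpl34 (0.92 ± 0.06) was also called after centring.

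**Figure D3:**
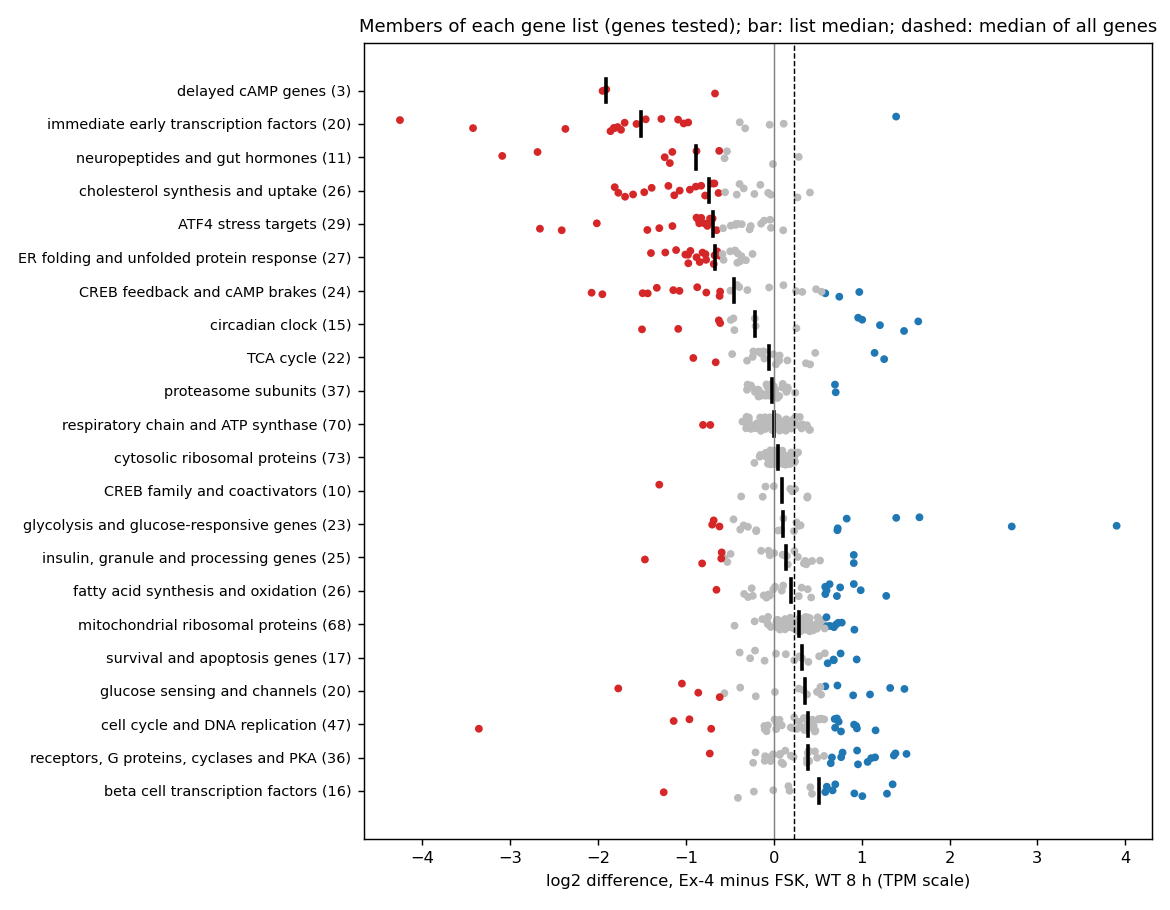
Each point is a tested member of a gene list (number of tested genes in brackets), placed by its log2 difference, Ex-4 minus FSK, at 8 h in WT on the TPM scale (x axis); red points were called lower and blue points higher with Ex-4, grey points were not called, black bars are list medians and the dashed line is the median of all genes. Vertical scatter within a row is only for legibility. The immediate early list has its median at −1.51 and the beta cell transcription factor list at 0.51.

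The place of the untreated level described how the agents related. Of the 2396 genes higher with Ex-4, 2187 (91.3%) had means ordered FSK, Ex-4, CON from low to high, and 205 (8.56%) had CON between the agents. Of the 490 genes lower with Ex-4, 437 (89.2%) had means ordered CON, Ex-4, FSK, and 48 (9.80%) had CON between. Opposite movement from CON, as for Chgb, was thus the minority pattern in each direction. Of the 7389 genes that were not called, 3636 (49.2%) had the first order and 1478 the second. After centring, the Ex-4 mean lay between the others for 86.6% of genes higher and 91.4% of genes lower with Ex-4. In the comparisons with CON, which share the CON libraries, limma called 371 genes higher and 615 lower with Ex-4 and 901 higher and 3579 lower with FSK on the TPM scale. After centring these were 517 and 373 with Ex-4 and 1930 and 1848 with FSK, and with ERCC scaling 568 and 328 with Ex-4 and 903 and 3516 with FSK.

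**Figure D4:**
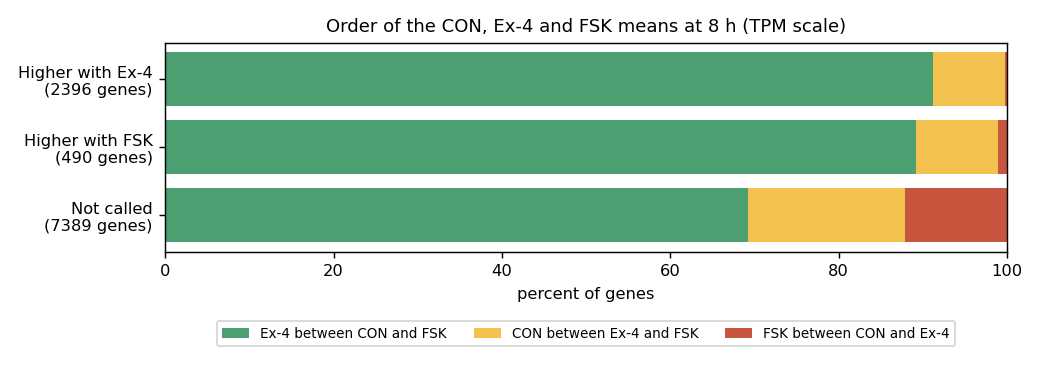
Bars give the percentage of genes (x axis, 0 to 100) in which the mean of Ex-4 (green), CON (yellow) or FSK (red) is the middle one of the 3, for genes called higher with Ex-4, called higher with FSK, or not called (y axis). Ex-4 is the middle mean in 91.3% and 89.2% of the called genes.

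The same contrast was measured in separate libraries at 1 and 16 h. After 1 h it was small: 67 genes (0.652%) favoured Ex-4 and 117 (1.14%) favoured FSK, 1.79% in all. Of the 117, 69 (59%, and 14.1% of the 490) were also lower with Ex-4 at 8 h. The immediate early list already had a median of −1.38 at 1 h, whereas the cholesterol, ER and ATF4 lists had 0.03, 0.02 and 0.00. Even so, 4 of the 29 ATF4 genes were called lower with Ex-4 at 1 h, where 1.14% of all genes were. Among them were Ppp1r15a (−0.995) and Trib3 (−0.70). At 16 h, 1176 genes (11.4%) favoured Ex-4 and 749 (7.29%) FSK, 18.7% in all. Of the 490 genes lower at 8 h, 352 (71.8%, and 47.0% of the 749) were lower at 16 h too, where 7.29% of all genes were. Of the 2396 higher, 982 (41.0%, and 83.5% of the 1176) were higher at 16 h, against 11.4% of all genes.

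The difference between 8 and 16 h was tested directly, and 1194 genes (11.6%) had a higher and 186 (1.81%) a lower Ex-4 minus FSK value at 8 h, 13.4% in all. With centring these became 424 and 449. Cholesterol synthesis moved towards 0: 11 of 26 genes had a lower value at 8 h than at 16 h, and the list median moved from −0.74 to −0.18. At 16 h Hmgcs1 had a mean of 297 TPM with Ex-4 and 390 TPM with FSK. Its difference moved from −1.81 to −0.39 (change −1.42 ± 0.08, adjusted p = 6.67e-13). ATF4 targets had a median of −0.97 at 16 h with 23 of 29 genes lower, and 5 of them had a higher value at 8 h than at 16 h. Of the beta cell transcription factors 9 were higher with Ex-4 at 16 h (median 0.74). Scg2 had means of 374 TPM with Ex-4 and 199 TPM with FSK at 8 h, and of 549 and 96.1 TPM at 16 h. The difference of Ins2 moved from 0.27 to 1.11 and that of Myc from 1.39 to 0.03.

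In Med14 S983A cells at 8 h, 3057 genes (29.8%) favoured Ex-4 and 690 (6.72%) FSK, 36.5% in all. Of the WT calls, 2045 of 2396 (85.4%, and 66.9% of the 3057) were higher and 361 of 490 (73.7%, and 52.3% of the 690) lower in the mutant as well. A direct test of WT against mutant called 322 genes (3.13%) with a higher and 521 (5.07%) with a lower Ex-4 minus FSK value in WT, 8.20% in all. Of 26 cholesterol genes, 9 had a lower value in WT, and the mutant median was −0.45. Txnip differed by 3.90 in WT and 1.85 in the mutant (change 2.05 ± 0.12), where its CON mean was 54.4 TPM. Nmu differed by −2.69 in WT and −0.11 in the mutant, in which its mean was 0.0125 TPM with Ex-4 and 0.0920 TPM with FSK, close to 0 with both. Fosb differed by −3.42 and −0.78. Ccnd1 went further in the mutant, from −3.36 to −4.74. The mutant cells are knock-in lines with baselines of their own: the CON mean of Ins2 was 35068 TPM in them and 2938 TPM in WT, so genotype and line cannot be told apart.

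**Figure D5:**
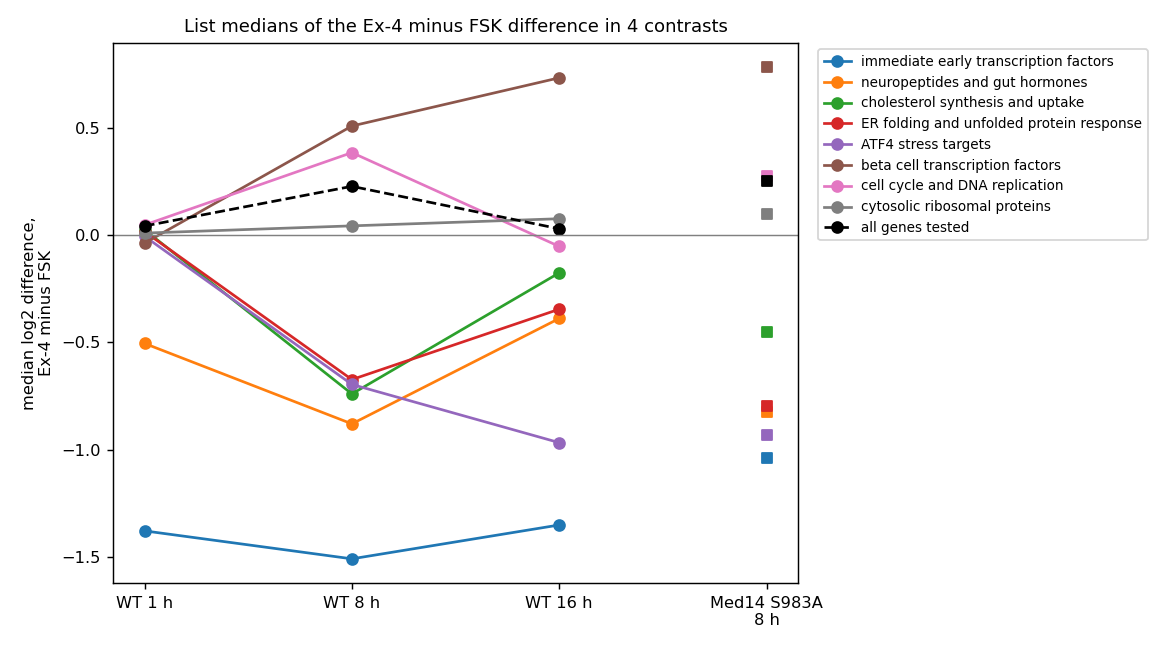
Median log2 difference, Ex-4 minus FSK (y axis), of 8 gene lists and of all genes tested (dashed) at 1, 8 and 16 h in WT (circles joined by lines) and at 8 h in Med14 S983A (squares). Immediate early genes are at −1.38, −1.51 and −1.35 over the WT times, while the cholesterol list goes from 0.03 to −0.74 and −0.18.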

How the data were processed

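Processed tables of bulk RNA-seq libraries were used, 28 in all, of which the WT 8 h Ex-4 and WT 8 h FSK libraries (2 each) make up the contrast. Per the labels and the study's methods, the authors built directional libraries from 1 µg of total RNA with ERCC spike-in, aligned paired-end reads to rn6 with ERCC sequences, and took TPM over the exons of RefSeq transcripts with HOMER. The submitters' processing notes name STAR 2.5.3a, HOMER 4.11.1 and DESeq2 1.24.0. The deposited values are TPM per transcript, and the deposited ERCC table holds counts per spike-in. No per-sample column of another series was present.

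For each of 17455 symbols the transcript with the highest mean TPM over all libraries was kept, and ERCC rows were removed. The 10275 genes whose TPM averaged 1 or more across the 28 libraries entered a fit of log2(TPM + 1) in limma 3.58.1 (R 4.3.3), with 14 groups in one fit and 14 residual degrees of freedom, and with Benjamini-Hochberg adjustment. A gene near 0 in CON could enter the fit only through more RNA in other groups. A call needed an adjusted p under 0.05 and a fold above 1.5. The fold understates the change of low genes because of the pseudocount of 1. All checked TPM values gave whole reads (100% of 137335 values, within 0.05 reads), so counts were recovered for edgeR 4.0.16 and DESeq2 1.42.0 as alternatives, which are not the main result. Counting error is small at 46350928 to 50385734 fragments for the 4 libraries. Alternatives were the pseudocount, filters, median-centring, ERCC scaling, the 4 libraries alone, a replicate block, summed transcripts and each library left out. The limma step was tested on simulated counts for this contrast (10274 genes): it recovered 97% of 2-fold and 99% of 3-fold changes. Only 200 genes were changed, evenly in both directions, and all genes shared a common dispersion. The simulation thus held no shift of the whole distribution and cannot speak to the choice of scale.

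Named genes are the 12 largest differences in each direction among genes of at least 10 TPM called under all 3 scalings, up to 3 called members per list and direction of at least 5 TPM, and 24 set genes of the pathway and of beta cells, of which 106 were used. Some genes that these rules or the marker lists hold are not reported here. Plk2, Ppp1r15a, Hspa5, Hsp90b1, Calr, Gcg, Ddit3 and other list members given only by their difference were added after their values were seen. The contrast, the lists and the tests were chosen with earlier results of these data known. Promoter sequences are from RefSeq (GRCr8), and gene positions are those of the deposited table (rn6).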

Additional observations from a re-analysis of the deposited data

Results flagged for a closer look

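For 45 genes, 23 leading genes and the set genes of the pathway and of beta cells, the Ex-4 minus FSK difference at 8 h in WT was compared with that at 16 h in WT and with that at 8 h in Med14 S983A cells, in the limma fit across all genes. A gene is listed where the difference between the contrasts itself had an adjusted p under 0.05 and a size above 1.5-fold. All values are log2 differences of differences on the log2(TPM + 1) scale, 2 libraries a group.

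Against 16 h, 12 genes were listed. The FSK excess was greater at 8 h for Fosl1 (−2.03), Fosb (−1.94), Hmgcs1 (−1.42) and Tgfb2 (−1.07), while for Ins2 (−0.84) the Ex-4 excess was 0.27 at 8 h and 1.11 at 16 h. The FSK excess was smaller at 8 h for Plat (1.35), Gprc5a (0.72), Trib3 (0.64) and Crem (0.59). The Ex-4 excess was greater at 8 h for Slc44a3 (1.42), Glb1l2 (0.98) and Oxr1 (0.82). Fosl1, an AP-1 subunit, had a mean of 4.17 TPM with FSK at 16 h against 28.7 and 28.8 TPM at 8 h.

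Against the mutant, 19 genes were listed. In WT the FSK excess was greater for Fosb (−2.65), Nmu (−2.58), Fosl1 (−1.23), Chac1 (−0.99), Nr4a1 (−0.98), Tgfb2 (−0.83), Hmgcs1 (−0.69), Osbpl6 (−0.68), Iapp (−0.64) and Kdr (−0.62). It was smaller in WT for Ccnd1 (1.38), Crem (1.09), Cck (0.90), Fst (0.73), Sik1 (0.62) and Pde4d (0.62). The Ex-4 excess was greater in WT for Txnip (2.05) and smaller for Vil1 (−0.69) and Slc44a3 (−0.68). Osbpl6 had an FSK excess in WT (−0.67) and a difference of 0.01 in the mutant, and Iapp one of −0.56 and 0.08.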

How the results depend on the processing

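The count of genes higher with Ex-4 (2396) became 1195 with median-centring, 3817 and 3808 with edgeR and DESeq2 on ERCC size factors, and 6022 with no fold minimum. The count lower with Ex-4 (490) became 1058 with median-centring, 1049 with edgeR, 1070 with DESeq2 and 1885 with no fold minimum. Leaving out each library in turn gave 2271 to 2571 higher and 484 to 513 lower. Of the 8 h against 16 h counts (1194 and 186), centring gave 424 and 449, ERCC scaling 2578 and 99, edgeR 461 lower and no fold minimum 4816 and 898. The WT against mutant counts (322 and 521) were 1791 and 2446 with no fold minimum. The remaining alternatives kept each count within 1.5 times. Among the genes named, 89 of 111 called genes kept their call under all 16 alternatives that gave them a value, and 0 changed sign. These counts are partly set by how the genes were chosen. The leading genes had to be called under centring and ERCC scaling, which are among the alternatives, and list members were picked for large differences. Of all 2886 called genes, 1547 held the call under the 3 scalings. Leaving out a single library ended the calls of Bhlhe40 (−0.58 without FSK replicate 2), Id1 (−0.44 without FSK replicate 1), Slc2a1 (−0.58 without Ex-4 replicate 2, −0.46 without FSK replicate 2) and Snap25 (−0.51 without Ex-4 replicate 1, −0.55 without FSK replicate 1). The replicate block gave 2396 higher and 490 lower genes. Replicate numbers did not pair the libraries (correlation of deviations from the group means 0.03 for Ex-4 and FSK at 8 h). Since the scalings differ in where the median gene lies, the direction of a gene with a small difference rests on the scale chosen. With 2 libraries a group, the spread comes from all 14 groups together.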

Other observations

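The RNA pool itself differed between the agents at 8 h. Genes with a higher mean with FSK than with Ex-4 held 103171 TPM more with FSK in sum, of which Ins1 gave 20465 TPM (19.8%) and the 10 largest gains together 33.2%. After Ins1 and Iapp came Hspa5, Vgf, Hsp90b1, Atp5mc1 (a subunit c gene of ATP synthase) and Calr. When genes were put in 5 equal bins by exon length, the median difference per bin ran from 0.21 to 0.24. In 5 bins by CON level, FSK-higher calls made up 9.88% of the lowest bin and 2.82% to 4.09% of the others. The lowest bin began at 0 TPM, and a gene below 1 TPM in CON was tested only through higher levels in other groups. The share in that bin is thus partly set by the filter.

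Dusp6, a phosphatase of ERK, had an Ex-4 minus FSK difference of 1.73 after 1 h, 0.59 after 8 h and 0.01 after 16 h in WT, and of −0.65 after 8 h in Med14 S983A. Gcg, the glucagon gene, was at 165 and 169 TPM in CON and at 758 to 1345 TPM in the 4 libraries treated for 8 h. Its difference was −0.62 in WT at 8 h, 0.29 in WT at 16 h and −1.38 in the mutant at 8 h. The WT call at 8 h was lost without Ex-4 replicate 1 (−0.48), without FSK replicate 2 (−0.55) and with ERCC scaling (−0.46).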
